A study of Mus musculus with 6 samples.

Results

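The chemokine ligands of the mouse were followed here in 2 populations of medullary thymic epithelial cells (mTEC). Members were taken by name from the table of gene counts: every gene named Ccl or Cxcl with a number and at most one letter from a to c behind it, together with Cx3cl1, Xcl1 and Pf4. This gave 46 gene rows with 41 names out of 52636 gene rows, 39 of them on chromosomes and 7 on unplaced scaffolds that carry further copies of Ccl19, Ccl21 and Ccl27. The rule itself uses gene names only. It leaves out Ppbp, the platelet chemokine CXCL7, whose name does not follow the pattern.

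The study asked whether surface markers can isolate tuft-like mTEC, the thymic counterparts of the chemosensory tuft cells of the gut. Both populations were sorted from thymi of C57BL/6 mice at 6 weeks of age and shared binding of the lectin UEA, low MHCII and the absence of CD80, Sca1 and CD63. Tuft-like mTEC were CD117+ CD66a+, and non-tuft-like mTEC were CD117- CD66a-. The latter are the cells of the same gate that lacked both markers, and the paper proposes that they are a mixture. Cells with only CD117 or only CD66a fall into neither population. Each population was represented by 3 bulk RNAseq libraries made with an ultra-low input protocol, and the labels do not say whether the libraries came from separate animals, so the p-values may measure technical spread only.

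Chemokines are small secreted proteins that guide leukocytes through G protein-coupled receptors, and they are grouped as CC, CXC, XC and CX3C by the spacing of their first cysteines. In the thymus they draw in progenitors from the blood, lead developing thymocytes from the cortex into the medulla and place dendritic cells beside the medullary epithelium. Atypical receptors bind chemokines without classical signalling and remove them.

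The libraries held 20097617 to 48369825 reads on genes. A count of 3, taken as the limit that a count of 0 allows, corresponded to 0.0639 to 0.124 CPM (reads on a gene relative to the size of the library). The reads on no gene row ranged from 27.1% in tuft-like library 3 to 66.6% in tuft-like library 1, a spread that lay within one population. Levels are CPM after TMM normalization, which also adjusts for the composition of each library. A negative log2 fold change means a lower level in tuft-like mTEC, and its standard error is approximate. All 8 tuft cell markers were higher in tuft-like mTEC, and 4 of 7 mature mTEC markers were lower, with summed levels of 5072 to 6251 CPM in non-tuft-like against 854.6 to 1812 CPM in tuft-like libraries. H2-Ab1, an MHCII gene, carried most of that sum, at 5314, 5468 and 4432 CPM against 765, 983 and 1703 CPM. It was called lower (log2 fold change -2.14, edgeR adjusted p = 0.040), although both populations were sorted for low MHCII. Markers of keratinocytes summed to 3110 to 4970 CPM in the non-tuft-like and 133.1 to 1292 CPM in the tuft-like libraries, with 3 of 8 lower. The thymic epithelial list summed to 3977 to 4459 CPM against 3062 to 7148 CPM, a sum carried by Krt8, and 2 of its 7 genes were called lower, Krt14 (log2 fold change -3.49) and Foxn1 (-3.48). In these and the marker lists given further down, no gene was at 0 in every library of a population. Bulk libraries cannot tell fewer cells that make a transcript from less of it in each cell.

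The summed level of the chemokine ligands was lower in tuft-like than in non-tuft-like mTEC. Summed over the 46 rows, the family reached 914.0, 977.5 and 854.3 CPM in non-tuft-like libraries 1, 2 and 3 and 282.7, 365.7 and 446.5 CPM in tuft-like libraries 1, 2 and 3. The libraries did not overlap, and the mean of 915.3 CPM in non-tuft-like was 2.51 times that of 365.0 CPM in tuft-like mTEC. Of the 46 rows, 34 passed the filter on low counts. In these, edgeR's quasi-likelihood test with Benjamini-Hochberg adjustment called 2 members lower, Cxcl10 and Ccl25, where 0.951% of all tested genes were called lower. It called 0 members higher, against 1.16% of all tested genes (2.11% were called in either direction), and 0 members were higher at an unadjusted p under 0.05 or under any of the 17 alternative settings, DESeq2, the likelihood ratio test and limma voom included.

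The direction was shared more widely than the calls. At an unadjusted p under 0.05, 13 of the 34 members were lower, against 4.59% of all tested genes, and 0 were higher, against 4.38%. A negative fold change was found in 32 of the 34, against 49.0% of all tested genes, and the median log2 fold change was -1.70 against 0.02. In 19 of the 34 every tuft-like library lay below every non-tuft-like library, and in 0 of them above, against 8.85% and 7.18% of all tested genes. The filter bears on these counts. Of the 34 members, 11 passed the filter level of 0.299 CPM in all 3 non-tuft-like but not all 3 tuft-like libraries, 20 passed it in all 6, and 0 passed it in the tuft-like libraries alone.

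The 16 members with a mean of at least 10 CPM over all 6 libraries depend less on that filter. Of these, 15 had a negative fold change, where 51.0% of the tested genes with such a mean did, and their median was -1.02. The 2 called members are both among them, against 2.63% of such genes called lower. Their libraries did not overlap in 9, all with tuft-like below, against 15.9% of the genes with such a mean. This mean covers both populations, so a member can reach it through the non-tuft-like libraries. Ccl11, Ccl22, Cxcl5, Cxcl9 and Cxcl17 did so, with tuft-like means below 10 CPM. Members above that mean were mostly lower in tuft-like mTEC, by a smaller median change, but their choice is not independent of the difference. The plots of levels by library and of fold changes show the members ordered by role.

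**Figure D1:**
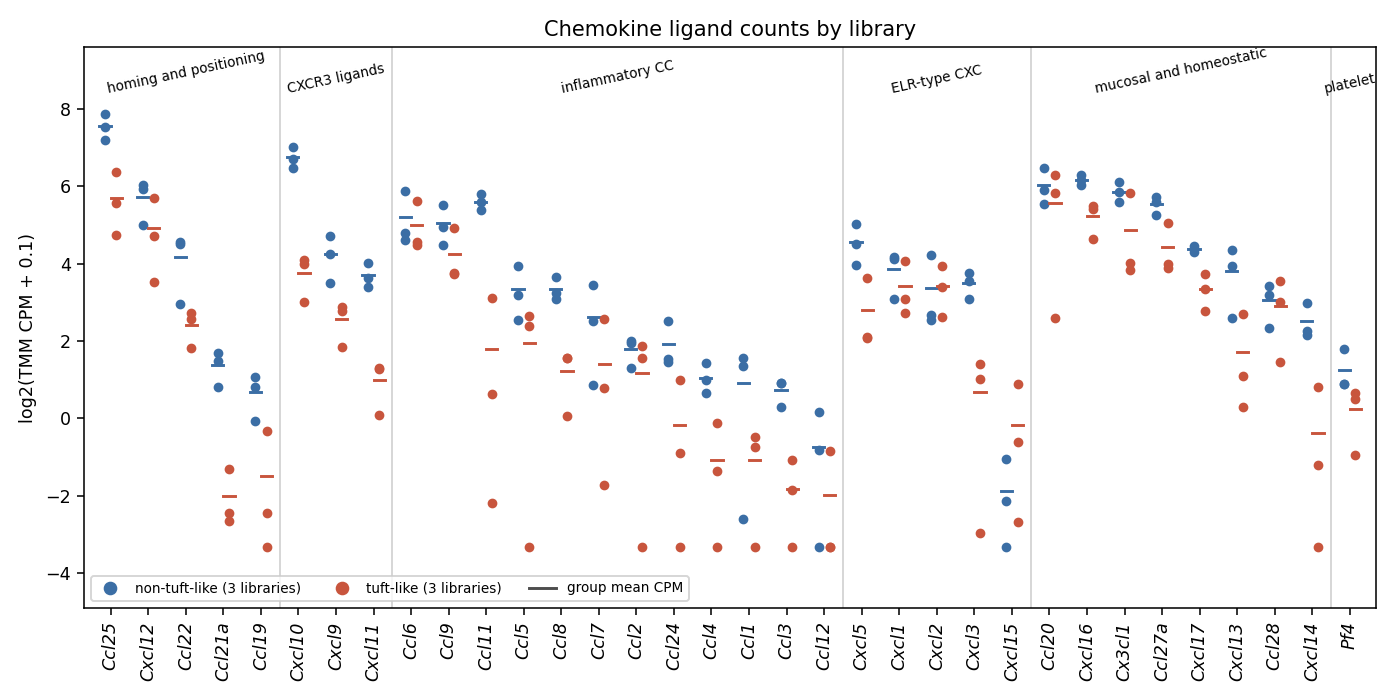
The 34 tested chemokine ligands on the x axis, grouped by role, with log2(TMM CPM + 0.1) on the y axis. Each point is one library, blue for the 3 non-tuft-like and red for the 3 tuft-like libraries, and short lines mark the group means of the CPM. In 19 of the 34 all red points lie below all blue points, and for none is it the reverse.

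Among the ligands that recruit and position thymocytes, Ccl25 was the called member and was lower in tuft-like mTEC. CCL25 is the ligand of CCR9 and attracts progenitors and cortical thymocytes. Its level was 147.1, 236.3 and 184.5 CPM in the non-tuft-like and 26.8, 47.6 and 82.8 CPM in the tuft-like libraries. No library of one population reached the range of the other, and tuft-like library 3 was the highest of its group. The log2 fold change was -1.85 ± 0.41 (standard error, n = 3 and 3), with an edgeR adjusted p of 0.049. This call lay close to the threshold. It was lost against a minimum fold of 1.5 and when non-tuft-like library 2 or 3 or tuft-like library 1 or 2 was left out, with an adjusted p of up to 0.207 and log2 fold changes between -2.38 and -1.53. Cortical epithelial markers, whose cells are a known source of Ccl25, summed to 165.4 to 388.7 CPM in the non-tuft-like and 100.6 to 135.2 CPM in the tuft-like libraries, with 0 of 5 called, and their part in the result was not tested.

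Ccl25 lies on chr8:4325210-4360020 (mm10, + strand), and 204 of its 7445 exonic bases overlap an exon of Elavl1 on the opposite strand. Whether reads were counted by strand is not given in the sources used here, so reads there cannot be assigned with certainty. The 250 bases before its inner annotated start, chr8:4349338-4349587 (+ strand, GRCm38.p6 from RefSeq), are shown because Ccl25 was one of the called members. They hold neither motif that is described with Cxcl10 below, and are therefore all in lower case.
Ccl25: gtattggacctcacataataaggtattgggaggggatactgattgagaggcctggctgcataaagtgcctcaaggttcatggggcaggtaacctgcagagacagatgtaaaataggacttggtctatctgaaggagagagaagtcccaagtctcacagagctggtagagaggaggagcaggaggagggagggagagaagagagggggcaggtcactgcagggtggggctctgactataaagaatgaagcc

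The other 4 tested homing ligands had lower mean levels in tuft-like mTEC, without a call. Cxcl12, which acts through CXCR4 on early progenitors, had 31.9, 61.5 and 66.0 CPM in the non-tuft-like and 52.4, 26.4 and 11.5 CPM in the tuft-like libraries. These ranges overlapped, since tuft-like library 1 lay between the non-tuft-like values, and the log2 fold change was -0.82 ± 0.52 (adjusted p = 0.930, edgeR). Ccl22, a ligand of CCR4 that attracts thymocytes after positive selection, had 22.8, 7.66 and 23.5 CPM against 6.53, 3.42 and 5.85 CPM. Its libraries did not overlap, although non-tuft-like library 2 came near the tuft-like range, and the log2 fold change of -1.77 ± 0.65 had an adjusted p of 0.336. Its neighbour Ccl17, the other CCR4 ligand, was not tested, with 58, 0 and 0 reads against 29, 1 and 0. Xcl1, which attracts XCR1+ dendritic cells, had 10 reads in tuft-like library 1 and none in the other 5.

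The ligands of CCR7, CCL19 and CCL21, which lead positively selected thymocytes into the medulla, had few uniquely assigned reads. Ccl21a had 52, 148 and 85 reads in the non-tuft-like and 2, 2 and 11 reads in the tuft-like libraries. That corresponds to 1.64, 3.15 and 2.7 CPM against 0.083, 0.058 and 0.304 CPM, with 2 of the 3 tuft-like libraries below the 3-count limit. The tuft-like libraries all lay below the non-tuft-like ones, and the log2 fold change of -4.03 ± 1.68 had an adjusted p of 0.465. Ccl19 had 52, 94 and 27 reads against 2, 0 and 25, a log2 fold change of -2.52 ± 2.01 with an adjusted p of 1, and its tuft-like library 3 lay near the lowest non-tuft-like one. The rows of Ccl21b and Ccl21c and the scaffold copies of both genes held between 0 and 15 reads in any library.

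These rows measure only part of the locus. Ccl19 and Ccl21 are repeated in near-identical copies on chromosome 4 and on scaffolds, and HTSeq sets reads aside that align to more than one place. Of all 50-base windows of the annotated transcripts, 52% for Ccl19, 71.6% for Ccl21a, 45% for Ccl27a, 98.1% for Ccl27b and 100% for Ccl21b occur identically in another annotated gene. A row named Ccl19-ps1, annotated as an unprocessed pseudogene on chr4:41921405-41923020 and outside the naming rule, was looked up after the values of Ccl19 were seen. It held 628, 986 and 925 reads in the non-tuft-like and 22, 42 and 63 reads in the tuft-like libraries. That was 19.8, 21 and 29.4 CPM against 0.909, 1.23 and 1.74 CPM, a log2 fold change of -4.17 ± 0.62 with an adjusted p of 0.0059. Its tuft-like libraries lay far below the non-tuft-like ones, it was called in 16 of the 17 alternative settings, and under limma voom its adjusted p was 0.066. Per kb of annotated exon the non-tuft-like mean was 71.6 CPM for Ccl19-ps1 and 1.73 CPM for Ccl19.

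Over the 327 bases of the Ccl19 coding sequence the copies differ at 4 positions (98.8% identity), so the assignment of a read rests on very few bases. The stretch from base 59 to base 118 of the coding sequence, on the sense strand from the GENCODE M21 transcripts, shows 2 of those positions in capitals.
Ccl19: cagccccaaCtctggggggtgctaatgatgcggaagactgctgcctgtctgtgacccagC
Ccl19-ps1: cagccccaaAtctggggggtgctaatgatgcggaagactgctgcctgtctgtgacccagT
Summed over the 4 rows named Ccl19 or Ccl19 pseudogene, the level was 21.8, 23.0 and 30.3 CPM in the non-tuft-like and 0.992, 1.23 and 2.43 CPM in the tuft-like libraries. Which copy the transcripts came from was not tested. The sum over the 6 rows named Ccl21, at 1.70, 3.15 and 3.24 CPM against 0.083, 0.058 and 0.331 CPM, showed the same order of the populations.

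CXCL9, CXCL10 and CXCL11 are induced by interferons and bind CXCR3, a receptor of activated T cells and natural killer cells. All 3 genes were lower in level in every tuft-like library than in every non-tuft-like library. Cxcl10, on chr5:92346638-92348889, measured 129.1, 89.4 and 105.3 CPM in the non-tuft-like and 16.9, 8.01 and 15.8 CPM in the tuft-like libraries. The lowest non-tuft-like library stood far above the highest tuft-like one, and the spread within each population was small beside that gap. The log2 fold change was -2.99 ± 0.36, with an edgeR adjusted p of 0.00186. Cxcl10 was called under all 17 alternative settings, with log2 fold changes between -3.18 and -2.73 and adjusted p-values up to 0.00696 when each library was left out.

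Cxcl9 had 26.3, 18.9 and 11.3 CPM against 7.23, 6.81 and 3.48 CPM (log2 fold change -1.69 ± 0.60, edgeR adjusted p = 0.306). Cxcl11 had 10.4, 16.1 and 12.2 CPM against 2.31, 0.965 and 2.35 CPM (-2.78 ± 0.78, adjusted p = 0.133). Both were thus separated between the populations without passing the threshold, and DESeq2, which called 4.06% of the genes it tested lower, called both. The sum of the 3 genes was 165.9, 124.4 and 128.8 CPM in the non-tuft-like and 26.4, 15.8 and 21.6 CPM in the tuft-like libraries, a mean ratio of 6.56, the largest among the role groups. Cxcl11 is annotated as a polymorphic pseudogene, so its reads, also within the sum, need not stand for a working ligand. Of its 3794 exonic bases, 1582 overlap another annotated gene on the opposite strand, against 133 of 2252 for Cxcl10. The macrophage and dendritic cell markers, cells that also make these ligands, summed to 103.5 to 150.0 CPM in non-tuft-like and 61.2 to 87.6 CPM in tuft-like libraries, with 1 of 12 called lower, Cd68. Without Cd68 and Cd14, which were picked after the values were seen, the sums overlapped, at 26.4, 54.0 and 55.2 CPM against 78.5, 48.3 and 23.6 CPM. That overlap follows in part from the choice. Ptprc, on this list as the leukocyte marker CD45, had 3.41, 10.9 and 11.7 CPM against 33.7, 27.6 and 8.31 CPM. Which cells held its reads was not tested, nor was the part of macrophages and dendritic cells in the result.

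The 3 genes lie side by side on chr5:92321347-92365485, all on the - strand. The 250 bases before the starts of Cxcl10, chr5:92348890-92349139, and Cxcl9, chr5:92328080-92328329 (both - strand, GRCm38.p6 from RefSeq), are shown because these neighbours share the direction of the difference. Capitals mark matches, searched on both strands, to an interferon response-type motif (GAAA, any 2 bases, GAAA) and to a kB-type motif (GGGA, any 2 bases, TTCC).
Cxcl10: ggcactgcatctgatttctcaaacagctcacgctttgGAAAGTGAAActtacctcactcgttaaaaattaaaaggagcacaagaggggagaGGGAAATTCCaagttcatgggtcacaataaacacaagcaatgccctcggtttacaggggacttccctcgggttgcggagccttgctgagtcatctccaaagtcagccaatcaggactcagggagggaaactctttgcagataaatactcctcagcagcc
Cxcl9: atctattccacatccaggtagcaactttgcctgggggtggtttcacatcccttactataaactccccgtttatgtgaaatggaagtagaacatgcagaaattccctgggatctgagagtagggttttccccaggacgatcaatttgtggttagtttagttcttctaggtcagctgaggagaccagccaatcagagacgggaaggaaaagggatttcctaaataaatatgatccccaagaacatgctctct
Cxcl10 holds 1 match to each, starting 213 and 159 bases before the start, and Cxcl9 holds none. The interferon-type letters occurred in 2.98% and the kB-type letters in 1.21% of 32851 upstream windows of this length. Among 34 windows of the 28 member names found in the RefSeq table, 3 held the first (Ccl19, Cxcl10 and Cxcl14) and 5 the second (Ccl1, Cxcl1, Cxcl10, Cxcl2 and Cxcl3). A match of letters does not show that a factor bound there.

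**Figure D2:**
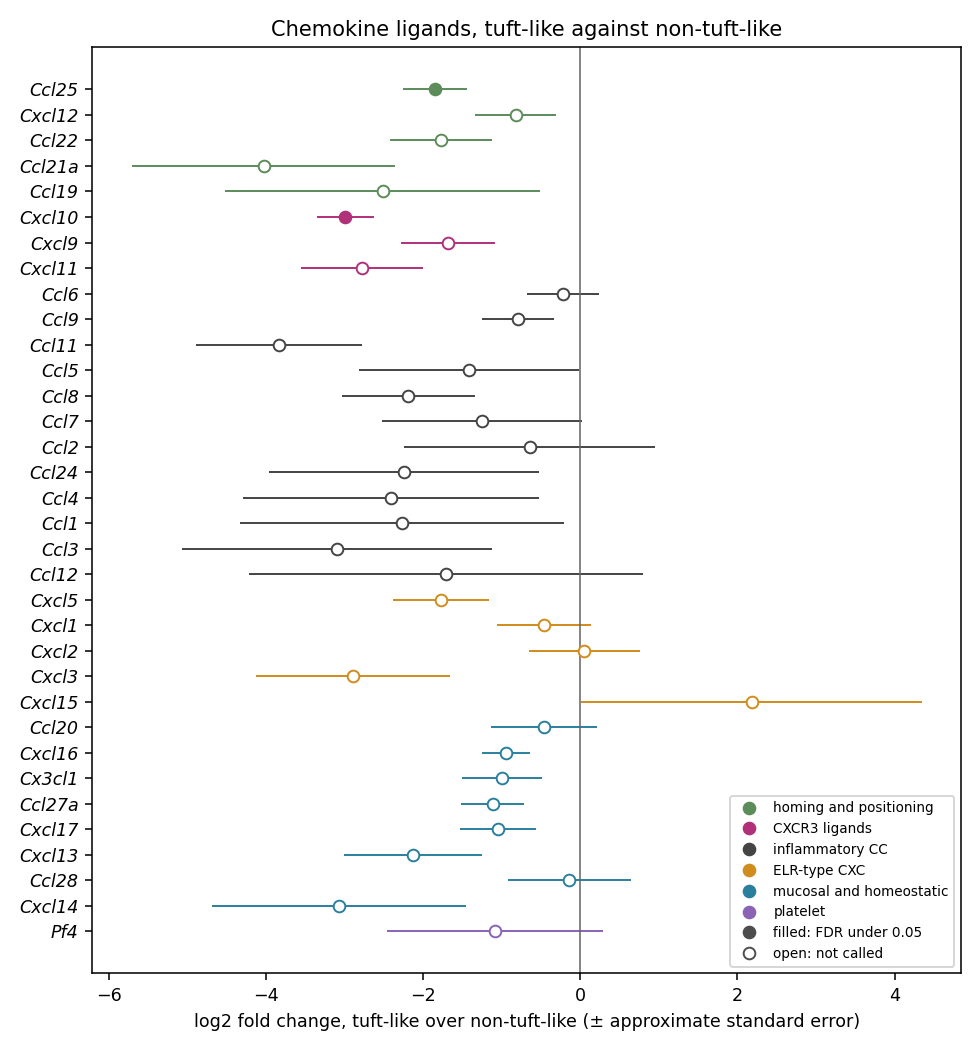
The log2 fold change of tuft-like over non-tuft-like mTEC on the x axis for the 34 tested members on the y axis, with the approximate standard error as bars and colours for the role. Filled points mark the 2 called members, Cxcl10 at -2.99 and Ccl25 at -1.85, and 32 of the 34 points lie left of 0.

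The inflammatory CC ligands act on monocytes, eosinophils, T cells and neutrophils. Of 13 rows 12 were tested, 0 were called, all 12 fold changes were negative and their median was -1.95. Ccl11, the eosinophil attractant eotaxin, stood out with 41.6, 55.4 and 48.3 CPM in the non-tuft-like and 1.45, 0.117 and 8.56 CPM in the tuft-like libraries. The non-tuft-like libraries were close to each other, while the tuft-like ones ranged from 4 reads in library 2 to 310 in library 3. The log2 fold change was -3.84 ± 1.06 with an edgeR adjusted p of 0.125. Ccl11 was called in 6 of the 17 alternative settings, among them DESeq2, limma voom and the fit without tuft-like library 3, where the log2 fold change was -6.05 with an adjusted p of 0.012.

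Ccl6 and Ccl9, rodent ligands of CCR1 that sit side by side on chromosome 11, had overlapping populations. Ccl6 had 27.7, 58.9 and 24.4 CPM against 22.5, 48.9 and 23.7 CPM, ranges that lay almost on top of each other (log2 fold change -0.22 ± 0.46, edgeR adjusted p = 1). Leaving out non-tuft-like library 2 turned the sign. Ccl9 had 30.7, 46.1 and 22.2 CPM against 13.2, 13.6 and 30.4 CPM, overlapping only through tuft-like library 3 (-0.79 ± 0.46, adjusted p = 0.853). For both, a difference of the size of that of Cxcl10 was not seen, but the errors allow a decrease of modest size.

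The remaining 9 tested members of this group averaged 0.323 to 6.91 CPM over the 6 libraries. Ccl8, Ccl24, Ccl3 and Ccl4 had all tuft-like libraries below all non-tuft-like ones, with log2 fold changes of -2.19, -2.24, -3.09 and -2.41. The libraries of Ccl5, Ccl7, Ccl2, Ccl1 and Ccl12 overlapped, with log2 fold changes between -2.27 and -0.65. Standard errors ran from 0.84 for Ccl8 to 2.51 for Ccl12, and edgeR's adjusted p was at least 0.387 in all 9, so single differences were not detectable at these counts, apart from Ccl8 under DESeq2. Of the 34 tested members, 6 had 0 reads in tuft-like library 3, 4 in library 2 and 0 in library 1, while the share of reads on no gene was lowest in library 3 and highest in library 1, and its part in these values was not tested. The untested Ccl26 held 0 to 15 reads.

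By position, the chromosome 11 cluster of Ccl2, Ccl7, Ccl11, Ccl12, Ccl8 and Ccl1 had log2 fold changes from -3.84 to -0.65, and that of Ccl5, Ccl9, Ccl6, Ccl3 and Ccl4 from -3.09 to -0.22. Every gene of both clusters had negative values. Granulocyte markers, cells that carry the receptors of several of these ligands, summed to 69.9 to 92.3 CPM in non-tuft-like and 22.1 to 48.3 CPM in tuft-like libraries, with 0 of 8 called. That sum was carried by S100a8 and S100a9, which were picked after the values were seen. Without them it was 24.8, 20.1 and 20.9 CPM against 20.95, 24.9 and 6.05 CPM, an overlap that follows in part from the choice. Siglecf, on this list as an eosinophil marker, lay on the other side without overlap, at 0, 0.043 and 0.604 CPM against 5.91, 17.7 and 5.91 CPM (log2 fold change 5.51 ± 1.62, edgeR adjusted p = 0.159). Whether its reads came from eosinophils or from the sorted epithelial cells was not tested. The part of granulocytes in the results was not tested either.

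Cxcl1, Cxcl2, Cxcl3, Cxcl5 and Cxcl15 encode CXC ligands that draw neutrophils, the first 4 of them through CXCR2. None of the 5 was called, and the median log2 fold change was -0.46. Cxcl5 had 15.6, 32.4 and 22.7 CPM in the non-tuft-like and 4.17, 4.15 and 12.4 CPM in the tuft-like libraries. These did not overlap, tuft-like library 3 was again the highest of its group, and the log2 fold change was -1.77 ± 0.61 (edgeR adjusted p = 0.280). DESeq2 and the fit without tuft-like library 3 called it, the latter at -2.54 with an adjusted p of 0.034.

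These genes and Pf4 lie in one cluster on chr5:90759360-90905938, and differences between its members were not tested. Cxcl2 had 18.6, 5.77 and 6.26 CPM against 6.08, 10.5 and 15.1 CPM, fully interleaved (log2 fold change 0.05 ± 0.70, turning slightly negative with scaling by library size alone or with stricter filters). Cxcl1 overlapped too, at -0.46 ± 0.60. Cxcl3, beside them, had 8.33, 11.6 and 13.5 CPM against 2.56, 1.93 and 0.028 CPM, without overlap (-2.89 ± 1.23, edgeR adjusted p = 0.495). Cxcl15, with 0 to 42 reads, was the only other member with a positive value, 2.18 ± 2.17. Pf4, the platelet chemokine CXCL4 in the same cluster, had 1.74, 1.75 and 3.37 CPM against 1.49, 1.32 and 0.414 CPM (-1.09 ± 1.37). Platelet markers summed to 6.47 to 15.4 CPM in non-tuft-like and 10.9 to 18.6 CPM in tuft-like libraries, and so overlapped.

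The mucosal, epithelial and homeostatic ligands together summed to 331.3, 282.0 and 258.6 CPM in the non-tuft-like and 88.0, 163.3 and 218.6 CPM in the tuft-like libraries. They include Cxcl16 and Cx3cl1, which are made as transmembrane proteins and act as adhesion molecules until they are shed. Of 11 rows 8 were tested, 0 were called and all 8 fold changes were negative, with a median of -1.02. Cxcl16, the ligand of CXCR6, had 72.4, 66.1 and 78.6 CPM in the non-tuft-like and 24.9, 42.4 and 45.3 CPM in the tuft-like libraries. The populations did not overlap and the log2 fold change was small but comparatively precise, at -0.95 ± 0.31 (edgeR adjusted p = 0.234, 0 of 17 alternative settings below the threshold). Of its 3021 exonic bases, 552 overlap Zmynd15 on the opposite strand.

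Cx3cl1, the ligand of CX3CR1, had 69.0, 57.5 and 48.6 CPM against 16.1, 14.3 and 57.3 CPM. It was low in tuft-like libraries 1 and 2 and at the non-tuft-like level in library 3, with a log2 fold change of -1.0 ± 0.51 (edgeR adjusted p = 0.711). Without tuft-like library 3 it was -1.98 with an adjusted p of 0.013. Ccl27a, the keratinocyte chemokine that binds CCR10, had 48.0, 52.6 and 38.2 CPM against 14.8, 15.9 and 33.3 CPM. Here too tuft-like library 3 was the highest of its group, without reaching the non-tuft-like range (-1.12 ± 0.40, adjusted p = 0.311, and -1.63 with 0.034 without that library). The summed level of the keratinocyte markers given above was also lower in tuft-like mTEC, with 3 of 8 called lower, and their part in the Ccl27a values was not tested.

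Ccl20, the ligand of CCR6, was the member that tuft-like mTEC kept at the highest level per kb. It had 88.3, 60.1 and 46.9 CPM in the non-tuft-like and 5.95, 79.2 and 56.6 CPM in the tuft-like libraries. Tuft-like library 1 was far below all others, while libraries 2 and 3 lay within the non-tuft-like range. The log2 fold change was -0.46 ± 0.68 (edgeR adjusted p = 1), and it was 0.06 without tuft-like library 1. Cxcl17, a mucosal chemoattractant, had closely matched non-tuft-like libraries of 19.5, 20.6 and 21.7 CPM against 13.2, 6.75 and 10.02 CPM, without overlap (-1.04 ± 0.49, adjusted p = 0.595).

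Cxcl13, which attracts B cells through CXCR5, had 20.4, 15.2 and 5.98 CPM against 1.12, 2.02 and 6.35 CPM, overlapping through tuft-like library 3 (log2 fold change -2.13 ± 0.87). Cxcl14, constitutively made by many epithelia, had 4.39, 4.68 and 7.75 CPM against 0.331, 0 and 1.66 CPM, without overlap (-3.07 ± 1.62). Ccl28, a mucosal ligand of CCR10, had 9.09, 4.92 and 10.6 CPM against 11.7, 2.66 and 7.98 CPM, fully interleaved (-0.14 ± 0.78), and its sign turned when non-tuft-like library 3 or tuft-like library 2 was left out. Ccl27b and the Ccl27 copies on scaffolds held at most 12 reads in a library.

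Levels of different members were compared per kb of annotated exon. Reads that align to more than one copy are left out, so the ranks and shares of Ccl19, Ccl21a and Ccl27a may be too low. The row Ccl19-ps1, outside the naming rule and not ranked, had a non-tuft-like mean of 71.6 CPM per kb, above every member. In non-tuft-like mTEC the highest members were Cxcl10 at 47.9, Ccl20 at 45.8 and Ccl11 at 44.8 CPM per kb, which did not differ beyond their spread (SD 8.88, 14.9 and 6.42, n = 3). Behind them came Cxcl17 at 27.1, Ccl25 at 25.4, Cxcl16 at 24.0 and Ccl6 at 20.6 CPM per kb, with overlapping libraries. Without division by length Ccl25 was the highest member, at a non-tuft-like mean of 189.3 CPM. The length joins the exons of all annotated transcripts, 7445 bases for Ccl25. Which transcripts were made was not tested, so ranks and shares across genes are approximate. In tuft-like mTEC the order was Ccl20 at 33.3 (SD 26.4), Ccl6 at 17.7 (SD 8.31), Cxcl17 at 13.1 (SD 4.23) and Cxcl16 at 12.4 CPM per kb (SD 3.66), which overlapped.

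Cxcl10 was ranked 9 and Ccl11 ranked 17 in tuft-like mTEC, at 6.02 and 3.12 CPM per kb. As a share of the family's summed level per kb, Cxcl10 went from 11.7% in non-tuft-like to 3.92% in tuft-like mTEC, Ccl11 from 11.0% to 1.77% and Ccl25 from 6.23% to 4.14%. Ccl6 accounted for 4.97% and 10.9%. The share of Ccl20 was 14.1%, 9.97% and 8.94% in the non-tuft-like and 3.37%, 32.0% and 21.02% in the tuft-like libraries, so that tuft-like library 1 lay below all others and libraries 2 and 3 above them. Olfactory receptor genes, most of which are silent outside the olfactory epithelium, served as a background level. Their 99th percentile was 1.35 to 2.79 CPM per kb, depending on the library. In all 3 non-tuft-like libraries 27 members were above it, and in all 3 tuft-like libraries 12 were. The share of all genes above it was not computed, so these counts are not shown to be particular to the family.

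**Figure D3:**
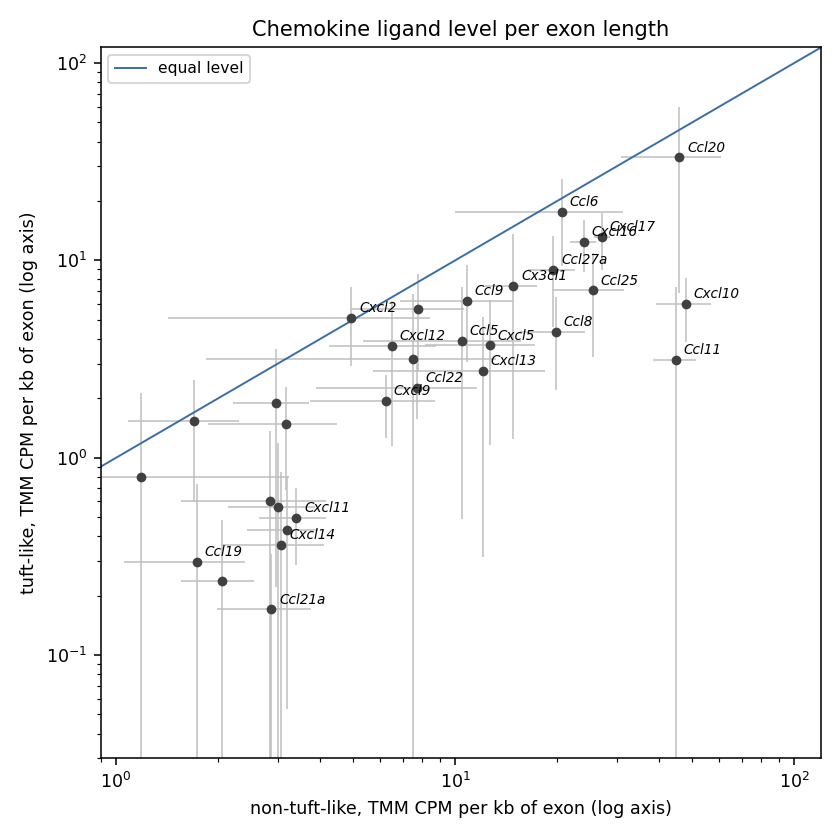
Mean level per kb of exon in non-tuft-like mTEC on the x axis and in tuft-like mTEC on the y axis, both log axes of TMM CPM per kb, for members above 1 CPM per kb in the former and above 0.1 in the latter. Bars are the SD of 3 libraries and run off the axis where they reach 0. Most points lie below the line of equal level, with Cxcl10 and Ccl11 far below it and Ccl20 and Ccl6 near it.

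The signalling receptors had few reads in either population, and of 19 genes 1 was above the olfactory background in all 3 non-tuft-like and 0 in all 3 tuft-like libraries. Of these, 16 were tested, 0 were called by edgeR, 0 had an unadjusted p under 0.05, and the median log2 fold change was -0.99. Those with the highest mean CPM were Ccr4 at 11.8, 16.6 and 23.4 CPM against 12.1, 5.96 and 0 CPM, Ccr2 at 15.5, 7.05 and 11.6 CPM against 6.65, 4.09 and 0.028 CPM, and Ccr9, the receptor of CCL25, at 7.60, 0.404 and 6.64 CPM against 9.17, 6.08 and 0.939 CPM. Levels varied widely within each population. Thymocyte markers, cells known to carry these receptors, summed to 20.6 to 36.5 CPM in the non-tuft-like and 8.73 to 39.3 CPM in the tuft-like libraries, with 0 of 9 tested called.

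Of the 6 atypical receptors 1 was called, and it was higher in tuft-like mTEC, where 1.16% of all tested genes were called higher. Ackr4 encodes the scavenging receptor that binds and internalises CCL19, CCL21 and CCL25. Its level was 4.51, 21.6 and 11.2 CPM in the non-tuft-like and 85.7, 114.5 and 120.8 CPM in the tuft-like libraries. The populations were far apart, and the log2 fold change was 3.10 ± 0.51 with an edgeR adjusted p of 0.0109. Ackr4 was called under all 17 alternative settings, with log2 fold changes from 2.68 to 3.77. Of its 5380 exonic bases, 479 overlap Acad11 on the opposite strand.

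The rows of the scavenger and of its ligands therefore had opposite directions in these libraries. Ccl25 was called lower, close to the threshold, and Ccl21a and Ccl19 were lower in level without a call. The pseudogene row Ccl19-ps1, outside the naming rule, was also called lower. Gpr182, an atypical receptor of endothelial cells, had 69.7, 59.9 and 55.8 CPM against 36.5, 31.6 and 64.3 CPM (log2 fold change -0.48 ± 0.33, edgeR adjusted p = 1). Ccrl2, which presents chemerin without signalling, had 7.0, 5.24 and 9.69 CPM against 10.5, 4.65 and 10.5 CPM. Both overlapped between the populations. Endothelial markers summed to 36.1 to 65.5 CPM in non-tuft-like and 175.6 to 364.5 CPM in tuft-like libraries, with 1 of 6 called, the kinase gene Tek. Without Tek, which was picked after the values were seen, the sums overlapped, at 13.9, 28.8 and 31.8 CPM against 195.3, 33.8 and 6.02 CPM. Taking out the only called gene favours such an overlap. The part of endothelial cells in the Ackr4 result was not tested.

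**Figure D4:**
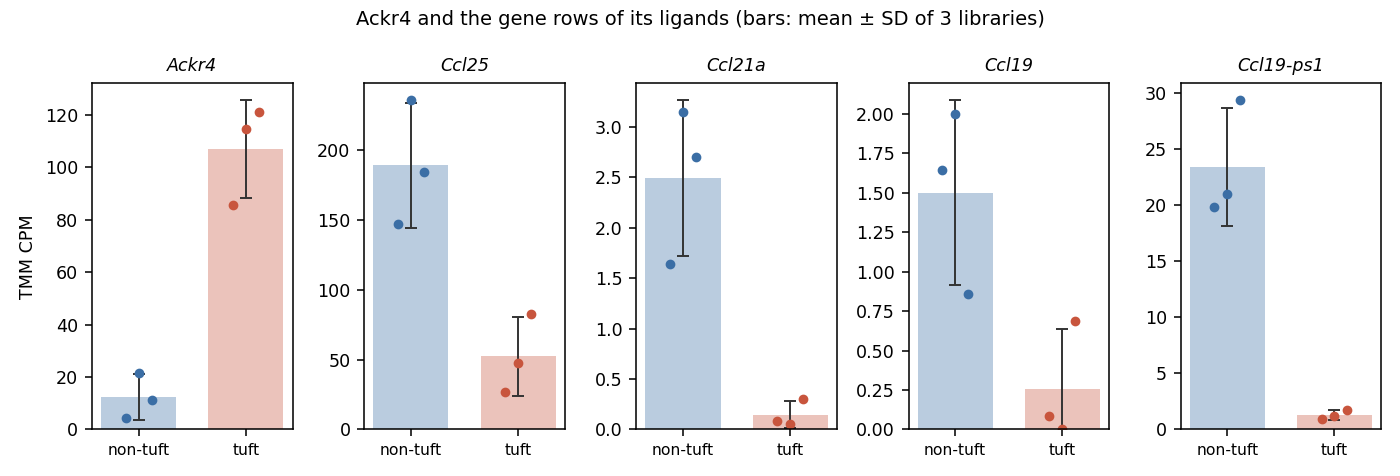
TMM CPM on the y axis, on a scale of its own for each gene, for Ackr4, Ccl25, Ccl21a, Ccl19 and the pseudogene row Ccl19-ps1. Bars give the mean of 3 libraries with its SD and points the single libraries, blue for non-tuft-like and red for tuft-like mTEC. Ackr4 is higher in every tuft-like library, while all 3 tuft-like points of the other rows lie below the non-tuft-like points.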

How the data were processed

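The authors used Trimmomatic 0.36 for trimming, STAR 2.7.3a for alignment to mm10 and HTSeq in its intersection-nonempty mode, and deposited unadjusted counts per gene. Strand setting and annotation release are not given in the sources used here. Cells were sorted into trizol per the paper, and the labels name a column kit. Gene names, exon lengths and overlaps came from GENCODE M21, which names 99.72% of the 52636 gene rows. The 92 ERCC rows and 5 HTSeq summary rows were left out. Counts were tested in R 4.3.3 with edgeR 4.0.16 (filterByExpr with a minimum count of 10 and total of 15, TMM, glmQLFit and glmQLFTest, no covariates) over all genes that passed, and genes with a Benjamini-Hochberg adjusted p below 0.05 were called. Standard errors are approximate: |log2 fold change| over the root of the F statistic. The common biological coefficient of variation was 1.10. With 3 libraries against 3 an exact permutation test cannot go below 0.10. Scripts were tested on simulated data.

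Members and lists were chosen with earlier results of these data known. Values were given for every called member, the 12 members with the highest mean CPM and the tested homing ligands. Of the receptor, chemoattractant and processing lists they were given for called genes and the 3 highest. Cell type marker lists appear as sums and counts, some not at all, and not all of their called genes are named. Other members with values were added after these were seen. The 17 alternative settings covered normalization, filters, DESeq2 1.42.0, limma 3.58.1 voom, other edgeR tests, the replicate number as a block and each library left out. The limits of 3 counts cover counting error only. The sequences shown are genomic windows from RefSeq and transcript sequence from GENCODE.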

Additional observations from a re-analysis of the deposited data

How the results depend on the processing

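The number of members called lower was 2, and it was 9 under DESeq2, which gave an adjusted p for 30 members and called 4.06% of all its genes lower, and whose further members were Ccl8, Ccl11, Ccl21a, Ccl22, Cxcl5, Cxcl9 and Cxcl11. It was 1 under glmTreat against a fold of 1.5, and between 1 and 6 when each library was left out, with 1 without non-tuft-like library 2 or 3 or tuft-like library 1 or 2 and 6 without tuft-like library 3 (Ccl11, Ccl27a, Cx3cl1 and Cxcl5 in addition). No setting called a member higher. The count of all genes called, 687, became 1045 with library size only, 1127 without a filter, 2023 with DESeq2 and 1236 with the likelihood ratio test, and 376 to 922 with a library left out. With the replicate number as a block (replicate block) 3 members were called, Ccl11 in addition, and 737 genes in all. Same-numbered libraries did not deviate together (r = -0.0965, -0.0375 and -0.274), and the numbers were not taken as pairs. With 3 libraries per population these values cannot exclude that same-numbered libraries came from the same thymi.

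The sign turned only for genes that were not called: Cxcl2 (-0.037 with library size only, -0.0446 with a minimum count of 30, -0.0444 with a mean of 1 CPM) and, over the libraries left out, Cxcl2 (-0.34 to 0.80), Ccl20 (-1.05 to 0.065), Ccl28 (-0.62 to 0.26), Ccl6 (-0.68 to 0.28), Ccr9 (-0.47 to 0.65), Hmgb1 (-0.070 to 0.36) and Adam10 (-0.47 to 0.10). The cause was not tested. Approximate standard errors above 1 occurred at low counts and also at higher ones, such as 1.06 for Ccl11 at a mean of 25.9 CPM.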

Other observations

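Single other genes that shape leukocyte traffic also differed between the populations, where edgeR called 0.951% of all tested genes lower and 1.16% higher. Among 14 other genes of chemoattraction, which include the chemokine gene Ppbp and the receptor gene C5ar1, 7 fold changes were negative and 7 positive. The 1 gene called by edgeR was Sphk1, which makes the lipid attractant sphingosine 1-phosphate. It had 94.2, 70.6 and 100.8 CPM in the non-tuft-like and 12.4, 14.9 and 13.3 CPM in the tuft-like libraries, a log2 fold change of -2.71 ± 0.30 with an edgeR adjusted p of 0.0012, and was called under all 17 alternative settings. The genes of that list with the highest mean CPM were Anxa1, encoding annexin A1, at 470.6, 827.2 and 454.1 CPM against 596.1, 764.0 and 1402 CPM, Hmgb1 at 352.9, 407.8 and 284.8 CPM against 266.3, 415.9 and 476.4 CPM, and C3, the source of the attractant C3a. Anxa1 and Hmgb1 overlapped, whereas C3 had 567.8, 431.7 and 558.1 CPM against 164.6, 149.6 and 259.4 CPM without overlap, at -1.44 ± 0.32 with an edgeR adjusted p of 0.0515. C3 was called in 10 of the 17 alternative settings.

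Another list held 10 genes for enzymes that process chemokines or for carriers of the sugar chains that hold them. Of the 9 tested, 2 were called lower, against 0.951% of all tested genes. Mmp9, a protease that trims chemokines, had 81.2, 135.4 and 134.5 CPM in the non-tuft-like and 1.36, 2.78 and 8.28 CPM in the tuft-like samples (log2 fold change -4.81 ± 0.63, edgeR adjusted p = 0.0030). Sdc1, encoding the heparan sulfate carrier syndecan 1, had 407.6, 370.6 and 525.6 CPM against 46.9, 81.6 and 128.7 CPM (-2.34 ± 0.39, adjusted p = 0.0120, and 0.0715 without tuft-like library 2). Its relative Sdc4 lay on the other side in every library, with 208.9, 181.5 and 190.6 CPM against 274.9, 417.7 and 541.4 CPM, at 1.09 ± 0.32 with an adjusted p of 0.156. Adam10, which sheds Cxcl16 and Cx3cl1, overlapped between the populations at 239.1, 229.5 and 190.2 CPM against 131.2, 193.6 and 275.7 CPM.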
